A study of Mus musculus with 15 samples.

Results

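The BCL2 family of apoptosis regulators was followed across 15 mouse bone marrow samples through 10 of its genes, chosen by name: Bcl2, Bcl2l1, Mcl1, Bcl2a1a, Bcl2a1b, Bcl2a1d, Bax, Bak1, Bcl2l11 and Bbc3. All 10 were found among the 38315 genes of the deposited table, and all 10 passed the filter on low values. Total RNA was sequenced from 3 groups. The first held 7 marrows with acute myeloid leukaemia (AML) from NUP98-NSD1/FLT3-ITD transgenic animals, the next held 4 whole marrows of wild-type mice, and the last held 4 wild-type marrows that were lineage negative. NUP98-NSD1 is a fusion of a nuclear pore protein with a histone methyltransferase, and the FLT3-ITD allele carries a tandem duplication inside a receptor tyrosine kinase, which activates this receptor in blood progenitors. Lineage-negative marrow is depleted of cells that carry markers of mature blood lineages. Ages, the promoters behind the transgenic alleles, the lineage antibodies, and whether any samples came from the same animal are not given in the sources used here, so p-values measure the spread between these samples, which may be partly technical. Unsorted AML marrow holds leukaemic cells together with whatever normal cells remain.

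The BCL2 family decides at the outer mitochondrial membrane whether a cell undergoes intrinsic apoptosis. Anti-apoptotic members (BCL2, BCL-XL from Bcl2l1, MCL1 and A1 from the Bcl2a1 genes) hold the effectors BAX and BAK in check, and BH3-only members such as BIM (Bcl2l11) and PUMA (Bbc3) bind the anti-apoptotic members or activate the effectors. In marrow, MCL1 is needed by haematopoietic stem cells and neutrophils, BCL-XL by maturing erythroid cells and platelets, and A1 is known as an inducible survival protein of myeloid and lymphoid cells. BCL2 is the target of venetoclax, a drug used in human AML, and MCL1, BCL-XL and A1 are known as alternative survival proteins in cells treated with it.

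The 3 Bcl2a1 genes lie close together on mouse chromosome 9 and are near copies, which bears on how their reads can be told apart. Their coding sequences are each 519 bases long in the GENCODE vM21 transcripts (GRCm38), and 12 of those positions are not alike in all 3. Identity over the coding sequence was 97.88% for Bcl2a1a and Bcl2a1b, 98.65% for Bcl2a1a and Bcl2a1d, and 98.84% for Bcl2a1b and Bcl2a1d. The first 90 coding bases are shown because they hold 6 of the 12 differing positions, which are in capitals.
Bcl2a1a: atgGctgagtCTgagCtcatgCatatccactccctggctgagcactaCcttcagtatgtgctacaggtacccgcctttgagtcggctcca
Bcl2a1b: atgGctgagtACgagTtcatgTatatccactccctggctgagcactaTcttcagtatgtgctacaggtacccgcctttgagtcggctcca
Bcl2a1d: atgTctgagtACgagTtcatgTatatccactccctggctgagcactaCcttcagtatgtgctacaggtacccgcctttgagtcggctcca

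Of all 75-base windows of a transcript, 44.8% of those of Bcl2a1a, 56.5% of those of Bcl2a1b and 32.4% of those of Bcl2a1d occurred in no other Bcl2a1 transcript. The read length is not given in the sources used here. At 150 bases the shares were 71.8%, 85.8% and 69.7%. A read from the shared remainder can match more than 1 paralog, and the deposited values hold fractional reads. The 3 paralogs are therefore given separately and as their sum. The sum is the safer value where shared reads were split between paralogs and not counted in full for each.

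The promoters of the 3 copies are near copies too, and they are shown as part of that likeness. The 3 genes moved together in the comparisons with AML, but they share reads, and a part of the promoters in this was not tested. Over the RefSeq windows from 250 bases before the annotated start (GRCm38.p6), identity was 99.5% in 206 aligned columns for Bcl2a1a and Bcl2a1b, 95.2% in 250 for Bcl2a1a and Bcl2a1d, and 96.1% in 206 for Bcl2a1b and Bcl2a1d. Capitals mark GAGGAA on either strand, a purine-rich core of the kind that PU.1 and other ETS factors bind. The stretches are chr9:88956756-88956855 on the plus strand for Bcl2a1a, chr9:89199065-89199164 on the plus strand for Bcl2a1b, and chr9:88731915-88732014 on the minus strand for Bcl2a1d.
Bcl2a1a: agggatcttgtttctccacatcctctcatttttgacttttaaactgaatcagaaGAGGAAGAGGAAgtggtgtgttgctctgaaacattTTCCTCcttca
Bcl2a1b: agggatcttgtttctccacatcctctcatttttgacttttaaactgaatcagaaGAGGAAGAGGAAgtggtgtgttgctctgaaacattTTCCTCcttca
Bcl2a1d: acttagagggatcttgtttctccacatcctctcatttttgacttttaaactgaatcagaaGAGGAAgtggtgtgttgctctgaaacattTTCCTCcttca

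The stretches of Bcl2a1a and Bcl2a1b held 3 matches each and that of Bcl2a1d held 2. The same letters occurred in 23.253% of all 32851 windows of 250 bases, so a match alone is common. Among the other members, the windows of Bcl2 and Bak1 held 1 match each. An NF-kB-like motif (GGGA, any base, TT, any base, CC), found in 0.98% of windows, was in none of the members' windows on either strand, which says nothing about the factor.

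The members lie elsewhere in the genome as follows, in the coordinates of the deposited table, whose start positions differed from GRCm38 for all 10 members although gene lengths were the same. Bcl2 (ENSMUSG00000057329) spans chromosome 1 from 106465908 to 106642004, and Bcl2l1 (ENSMUSG00000007659) spans chromosome 2 from 152622588 to 152673648. Mcl1 (ENSMUSG00000038612) is on chromosome 3 from 95566099 to 95570487. Bcl2a1d (ENSMUSG00000099974), Bcl2a1a (ENSMUSG00000102037) and Bcl2a1b (ENSMUSG00000089929) start at 88605338, 88838953 and 89081262 on chromosome 9. Bax (ENSMUSG00000003873) and Bbc3 (ENSMUSG00000002083) are on chromosome 7 from 45111121 and 16042318, Bak1 (ENSMUSG00000057789) on chromosome 17 from 27238784, and Bcl2l11 (ENSMUSG00000027381) on chromosome 2 from 127967958.

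Values are normalized counts, estimated reads per gene divided by a size factor per library. Estimated depth was 20.3 to 35.1 M reads in AML, 11.4 to 17.2 M in whole marrow and 20.3 to 28.1 M in lineage-negative marrow, and 3 reads corresponded to a normalized count of 1.96 to 4.09. The mean of 1454 olfactory and vomeronasal receptor genes, which marrow is not known to use, was 0.0838 to 0.843 per exonic kilobase in AML, 1.73 to 3.30 in whole marrow and 0.0678 to 0.105 in lineage-negative marrow. Differences are log2(normalized count + 1) from a limma fit over all 15 samples, with Benjamini-Hochberg adjustment over 18941 genes. Calls needed an adjusted p under 0.05 together with a log2 difference of at least 1 in size. Erythroid markers were lower in AML than in whole marrow for all 8 genes listed, and neutrophil markers were lower in lineage-negative than in whole marrow for all 9. In addition, 6 of 7 progenitor markers were higher in lineage-negative than in whole marrow.

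Against whole marrow, 8 of the 10 members were called higher in AML and 1 was called lower, where 27.3% of all genes were called higher and 11.3% lower. The median gene was itself 0.67 higher on the log2 scale in this comparison, and the median member was 1.43 higher. When the deposited values were scaled further by trimmed mean of M values (TMM), which brought the median gene to 0.0066, 3 members were called higher (Bcl2, Bcl2a1a and Bcl2a1d) and 1 lower (Bcl2l1), beside 4.92% and 15.8% of all genes. Without whole marrow 1, which had the lowest value of the 4 whole marrows for every member, 5 members were called higher. Bcl2 and the 3 Bcl2a1 genes lay 1.06 to 2.34 above the median gene, and the effectors and BH3-only genes 0.35 to 0.83 above it. By adjusted p alone, 9 members were higher (51.5% of all genes) and 1 lower (12% of all genes). The 3 Bcl2a1 genes, all among the 8, share reads, so in this and the later member counts they are not independent.

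Against lineage-negative marrow, 4 of the 10 members were called higher in AML and none lower, where 17.7% of all genes were called higher and 12.5% lower. The 4 were Mcl1 and the 3 Bcl2a1 genes, which share reads and are not independent. TMM scaling gave 4 as well, beside 18% of all genes. By adjusted p alone, 1 member (Bcl2) was lower and 4 were higher, where all genes gave 21.6% and 23.5%. By unadjusted p, 1 was lower as well and 6 were higher, for which no share over all genes is given. The median gene differed by 0.02 here and the median member by 0.56. Both comparisons share the AML samples.

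**Figure D1:**
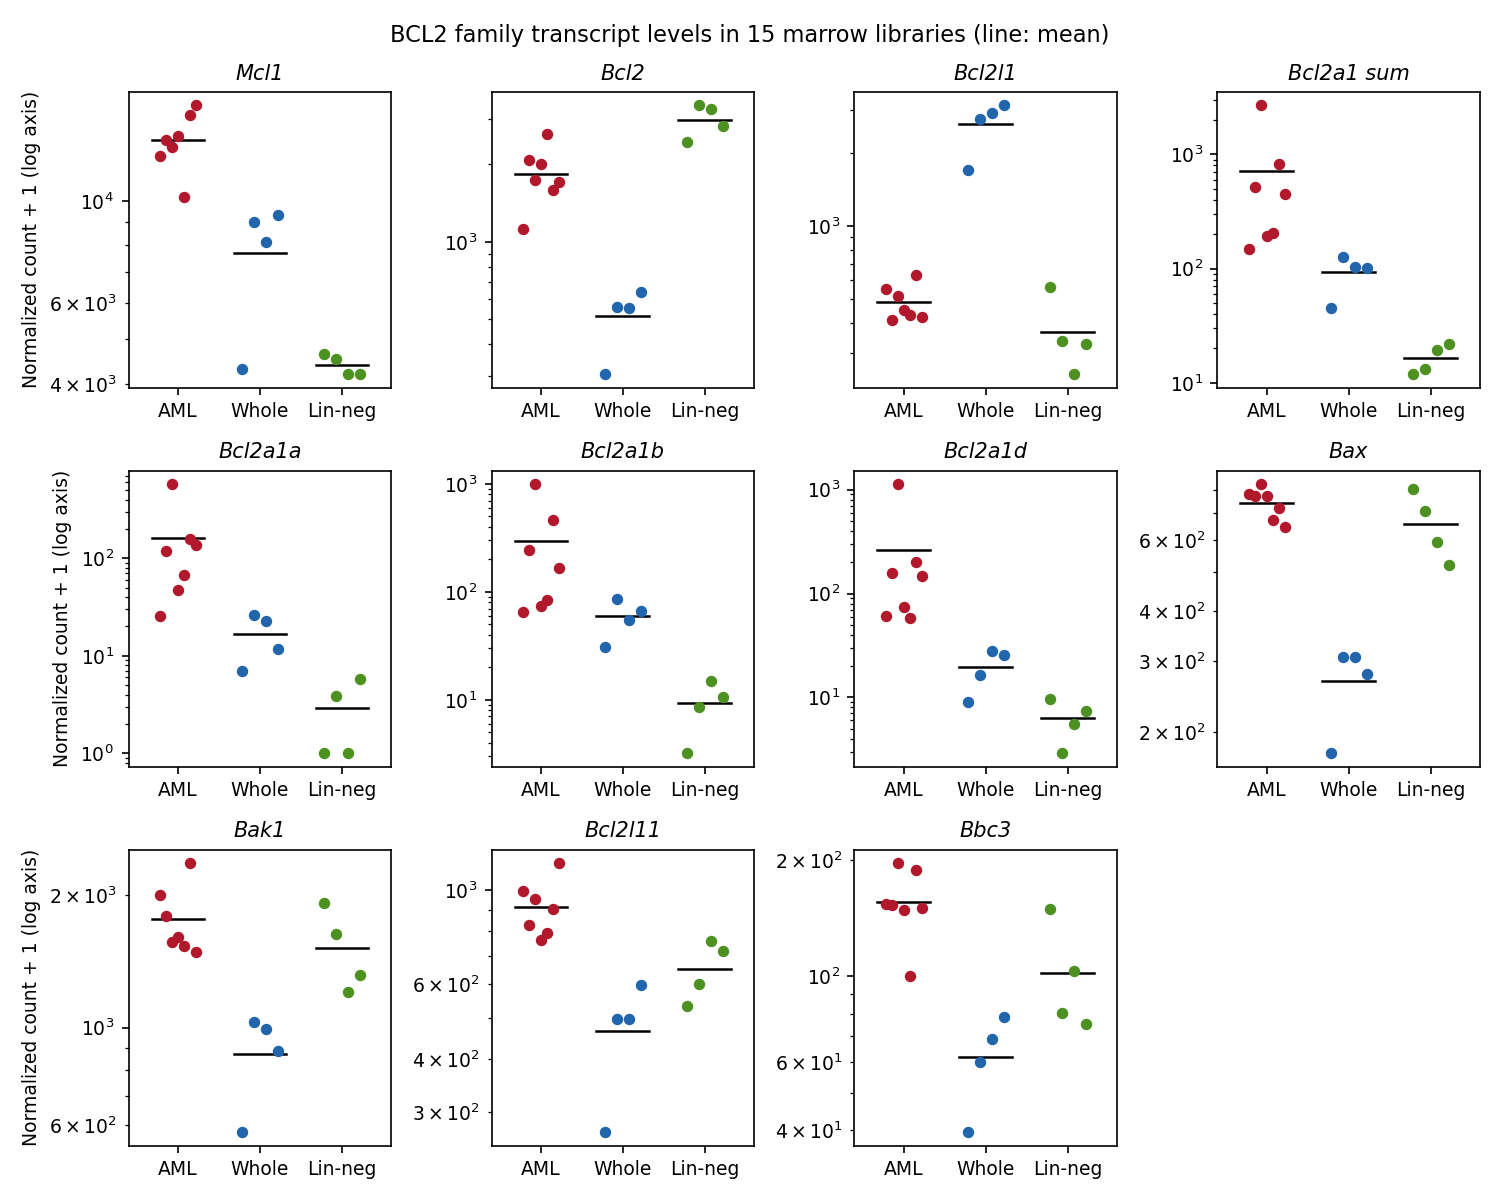
Normalized count plus 1 (log axis) of each member and of the Bcl2a1 sum in 7 AML, 4 whole and 4 lineage-negative marrows; points are libraries and lines are group means. Bcl2l1 was high in whole marrow alone among the 3 groups, Bcl2 was highest in lineage-negative marrow, and the Bcl2a1 genes were highest and most spread out in AML.

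Mcl1, which encodes a short-lived survival protein, was the most abundant anti-apoptotic transcript per kilobase of exon in all 15 libraries. Its normalized count in AML ran from 10216 through a median of 13547 to 16132. It was 4304, 9015, 8148 and 9312 in the whole marrows and 4638, 4537, 4195 and 4198 in the lineage-negative marrows. Every AML marrow was above every normal marrow of either kind, and whole marrow 1 lay among the lineage-negative values.

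Mean Mcl1 was 13534 ± 1937 (SD, n = 7) in AML and 4392 ± 230 (SD, n = 4) in lineage-negative marrow, a log2 difference of 1.61 ± 0.21 (SE; limma adjusted p = 3.5e-06). Against whole marrow, at 7695 ± 2314 (SD, n = 4), the difference was 0.86 (95% interval 0.43 to 1.30; limma adjusted p = 0.0016), which is under the size needed for a call and 0.19 above the median gene. With TMM scaling it was 0.19 (limma adjusted p = 0.31). The 3 groups thus ordered as AML, whole, lineage negative, with the step from AML to whole marrow not separable from the shift of the median gene. Lineage-negative minus whole was −0.75 (limma adjusted p = 0.0098), not called, and −1.45 with TMM scaling.

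Bcl2, the founding member and the target of venetoclax, had another order. Its normalized count in AML ran from 1119 through a median of 1734 to 2628. It was 305.1, 558.4, 553.7 and 636.8 in whole marrow and 2432, 3384, 3266 and 2818 in lineage-negative marrow. Whole marrow was lowest with no overlap, and only AML marrow 5, at 2628, reached into the lineage-negative range.

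Bcl2 in AML was 1838 ± 468 (SD, n = 7) against 513 ± 144 (SD, n = 4) in whole marrow, 3.58-fold higher, with a log2 difference of 1.85 ± 0.22 (SE; limma adjusted p = 2.8e-06). It was 1.18 above the median gene and 1.17 with TMM scaling. Against lineage-negative marrow, at 2975 ± 436 (SD, n = 4), the log2 difference was −0.72 (95% interval −1.19 to −0.26; limma adjusted p = 0.012), past the threshold on p but under the size needed for a call. Lineage-negative marrow exceeded whole marrow by 2.57 ± 0.25 (SE; limma adjusted p = 1.5e-07).

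Bcl2l1, which encodes BCL-XL, was the only member called lower in AML in either comparison. Its normalized count in AML ran from 408.3 through a median of 450.4 to 626.9. It was 1706, 2756, 2920 and 3142 in whole marrow and 561.9, 335.8, 244.1 and 324.4 in lineage-negative marrow. All AML and lineage-negative marrows were below all whole marrows, and AML and lineage-negative values overlapped.

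Bcl2l1 averaged 485 ± 81 (SD, n = 7) in AML and 2631 ± 637 (SD, n = 4) in whole marrow, a log2 difference of −2.41 ± 0.22 (SE; limma adjusted p = 1.2e-07). Lineage-negative marrow, at 367 ± 136 (SD, n = 4), was also lower than whole marrow, by a log2 difference of −2.87 ± 0.25 (SE; limma adjusted p = 4.4e-08). AML minus lineage-negative was 0.46 (95% interval −0.00031 to 0.91; limma adjusted p = 0.097). Erythroid markers moved with Bcl2l1: their summed normalized count was 395 to 32079 in AML, 805320 to 1986200 in whole marrow and 3359 to 47361 in lineage-negative marrow. All 8 were called lower than whole marrow in both other groups, and so were all 8 B cell markers. Within AML, marrow 1 had the lowest erythroid sum (395) and marrow 3 the highest (32079), with Bcl2l1 at 548.4 and 513.5. The part of erythroid or B cells in the Bcl2l1 difference was not tested. In bulk RNA, fewer cells of a type and less RNA per cell cannot be told apart.

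The Bcl2a1 genes, which encode A1, had the largest differences of all members between AML and lineage-negative marrow, and Bcl2a1d and Bcl2a1a the largest between AML and whole marrow. Their summed normalized count in AML ran from 147.6 through a median of 448.7 to 2681. It was 43.98, 124.6, 102.3 and 101.0 in whole marrow and 10.89, 12.34, 18.51 and 20.88 in lineage-negative marrow. The 3 groups did not overlap, and the lineage-negative sums rest on 12 to 32 estimated reads per library.

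The AML mean of the sum was 716 ± 898 (SD, n = 7), while whole marrow had 93 ± 34 (SD, n = 4) and lineage-negative marrow 15.7 ± 4.8 (SD, n = 4). The log2 difference was 2.32 ± 0.57 (SE; limma adjusted p = 0.0017) from whole marrow and 4.76 ± 0.57 (SE; limma adjusted p = 1.1e-06) from lineage-negative marrow. Lineage-negative minus whole was −2.44 ± 0.64 (SE; limma adjusted p = 0.0025). After TMM scaling the sum was 1.64 higher in AML than in whole marrow (limma adjusted p = 0.035). AML marrow 3 decided much of the mean: without it the AML mean was 388.7, and the differences were 1.88 and 4.33, both still called.

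By paralog, Bcl2a1a in AML ran from 24.77 to 571.6 with a median of 118.9. It was 6.00, 25.37, 21.58 and 10.60 in whole marrow, and in lineage-negative marrow it was listed at 0 in 2 libraries and at 2.85 and 4.82 in the other pair. AML marrow 1, at 24.77, lay just under the highest whole marrow. Its log2 difference from whole marrow was 2.80 ± 0.68 (SE; limma adjusted p = 0.0016). The difference from lineage-negative marrow, 5.57 with a pseudocount of 1, is not given as a fold, since those counts are near the floor of 3 reads, and it ranged from 4.04 to 7.37 over the alternatives other than leaving out single libraries.

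Bcl2a1b in AML ran from 63.71 to 986.3 with a median of 166.5. It was 30.02, 83.97, 53.98 and 65.52 in whole marrow and 2.20, 7.60, 13.94 and 9.72 in lineage-negative marrow. AML marrows 1, 4 and 5, at 63.71, 73.53 and 82.21, lay within the range of whole marrow. The log2 difference from whole marrow was 1.73 ± 0.62 (SE; limma adjusted p = 0.020), which was no longer called with TMM scaling (1.06, limma adjusted p = 0.21), with quantile scaling (1.31, limma adjusted p = 0.11) or without whole marrow 1 (1.45, limma adjusted p = 0.099). From lineage-negative marrow it was 4.51 ± 0.62 (SE; limma adjusted p = 6.8e-06). Exons of the predicted gene Gm29094 share 49.08% of the exonic bases of Bcl2a1b on the same strand, and its mean was 0.163 normalized counts against 156 for Bcl2a1b.

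Bcl2a1d in AML ran from 56.74 to 1123 with a median of 145.5. It was 7.96, 15.28, 26.71 and 24.84 in whole marrow and 8.69, 1.89, 4.57 and 6.35 in lineage-negative marrow. Every AML marrow was above every normal marrow. The log2 differences were 3.01 ± 0.62 (SE; limma adjusted p = 0.00042) from whole marrow and 4.64 ± 0.62 (SE; limma adjusted p = 5.2e-06) from lineage-negative marrow. Between the normal groups it was −1.63 (limma adjusted p = 0.050), just outside the threshold.

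The split between paralogs is given as a description, within the limits of near-identical sequence. Bcl2a1b held 52.8% to 68.3% of the sum in whole marrow and 36.8% to 56.5% in AML. Bcl2a1d held 12.3% to 26.1% in whole marrow and 24.3% to 41.9% in AML. The ranges of both overlapped between AML and whole marrow, and in lineage-negative marrow the counts were too low to read a split.

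Bcl2a1 values varied more among the AML marrows than those of any other member. The SD of log2 values over the 7 AML marrows was 1.43 to 1.49 for the 3 paralogs, larger than in 94.4% to 95.3% of all genes, where the median gene had 0.41. Bax was the steadiest, at 0.13, with 2.81% of genes below it. AML marrows 3, 6 and 2 had the highest Bcl2a1 sums (2681, 818.1 and 518.5), and the same 3 had the highest sums of 7 T and NK cell markers (2864, 3273 and 2459, against 662 to 1344 in the other 4). Of these markers, Cd3d, Cd3e, Cd3g and Cd2 were each highest in the same 3 marrows. Nkg7, Ncr1 and Klrb1c were not, and Ncr1 was lowest in AML marrows 6 and 3 (12.34 and 17.16, against 19.82 to 105.7). AML marrow 3 also had the highest sum of 8 B cell markers (6428, against 503 to 3048) and the highest erythroid sum, while its monocyte and macrophage sum of 43257 was the lowest of the 7. The genes of that last list were divided. In AML marrow 3, Ly6c2 and F13a1 were the lowest of the 7 (10380 and 10770), and Cx3cr1 and Adgre1 the highest (5436 and 2542). Csf1r, C1qa and Mertk there lay within the range of the other AML marrows. The T and NK cell sums were 694 to 1265 in whole and 1410 to 1916 in lineage-negative marrow, where Bcl2a1 was lowest. Nkg7 alone gave 1168 to 1801 of the lineage-negative sums. Whether cells with any of these markers carry the Bcl2a1 signal was not tested.

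Bax and Bak1 encode the effectors that open the outer mitochondrial membrane. Bax in AML ran from 646.1 through a median of 771.4 to 824.8. It was 175.9, 305.5, 305.8 and 278.3 in whole marrow and 805.6, 707.7, 591.3 and 520.7 in lineage-negative marrow. AML and lineage-negative values overlapped, and both lay above whole marrow.

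Bax was higher than in whole marrow by a log2 difference of 1.50 ± 0.18 in AML (SE; limma adjusted p = 2.9e-06) and 1.31 ± 0.20 in lineage-negative marrow (SE; limma adjusted p = 1.9e-05). With TMM scaling these were 0.82 and 0.61, under the size needed for a call. AML minus lineage-negative was 0.19 (95% interval −0.19 to 0.57; limma adjusted p = 0.42).

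Bak1 in AML ran from 1485 through a median of 1605 to 2361. It was 577.6, 1030, 993.6 and 883.3 in whole marrow and 1917, 1629, 1203 and 1315 in lineage-negative marrow. As for Bax, whole marrow was lowest and the other groups overlapped. AML minus whole was 1.03 ± 0.19 (SE; limma adjusted p = 0.00017), close to the size needed for a call, 0.36 above the median gene, and 0.35 with TMM scaling (limma adjusted p = 0.076). Without AML marrow 1 or 6 or whole marrow 1 it was 1.00, 0.96 and 0.85, under that size. AML minus lineage-negative was 0.22 (95% interval −0.18 to 0.63; limma adjusted p = 0.37). Exons of separate entries named Ggnbp1 overlap Bak1 on the opposite strand, over 7.35% and 18.16% of its exonic bases. Their means were 47.56 and 50.9 normalized counts, against 1459 for Bak1.

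Bcl2l11 encodes BIM, a BH3-only protein that binds all the anti-apoptotic members. In AML it ran from 762.1 through a median of 904.5 to 1155. It was 268.4, 497.1, 495.7 and 597.6 in whole marrow and 533.7, 599.3, 758.0 and 718.6 in lineage-negative marrow. The AML values lay above all normal values, the nearest pair being 762.1 and 758.0.

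AML minus whole was 1.02 ± 0.20 (SE; limma adjusted p = 0.00028) for Bcl2l11, 0.35 above the median gene and 0.34 with TMM scaling (limma adjusted p = 0.054). It was under the size needed for a call without AML marrow 1 or 7 (0.99 and 0.96) or whole marrow 1 (0.77). AML minus lineage-negative was 0.48 (95% interval 0.064 to 0.91; limma adjusted p = 0.057). The direction between the normal groups turned with the scaling: lineage-negative minus whole was 0.53 as deposited, −0.17 with TMM and −0.22 with quantile scaling.

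Bbc3 encodes PUMA, a BH3-only protein known as a target of p53. In AML it ran from 99.11 through a median of 151.8 to 194.9. It was 38.59, 58.96, 67.83 and 77.77 in whole marrow and 148.0, 79.32, 102.2 and 74.40 in lineage-negative marrow. AML lay above whole marrow without overlap and overlapped lineage-negative marrow. The log2 difference was 1.35 ± 0.26 (SE; limma adjusted p = 0.00024) from whole marrow, 0.68 with TMM scaling, and 0.64 (95% interval 0.089 to 1.18; limma adjusted p = 0.054) from lineage-negative marrow.

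**Figure D2:**
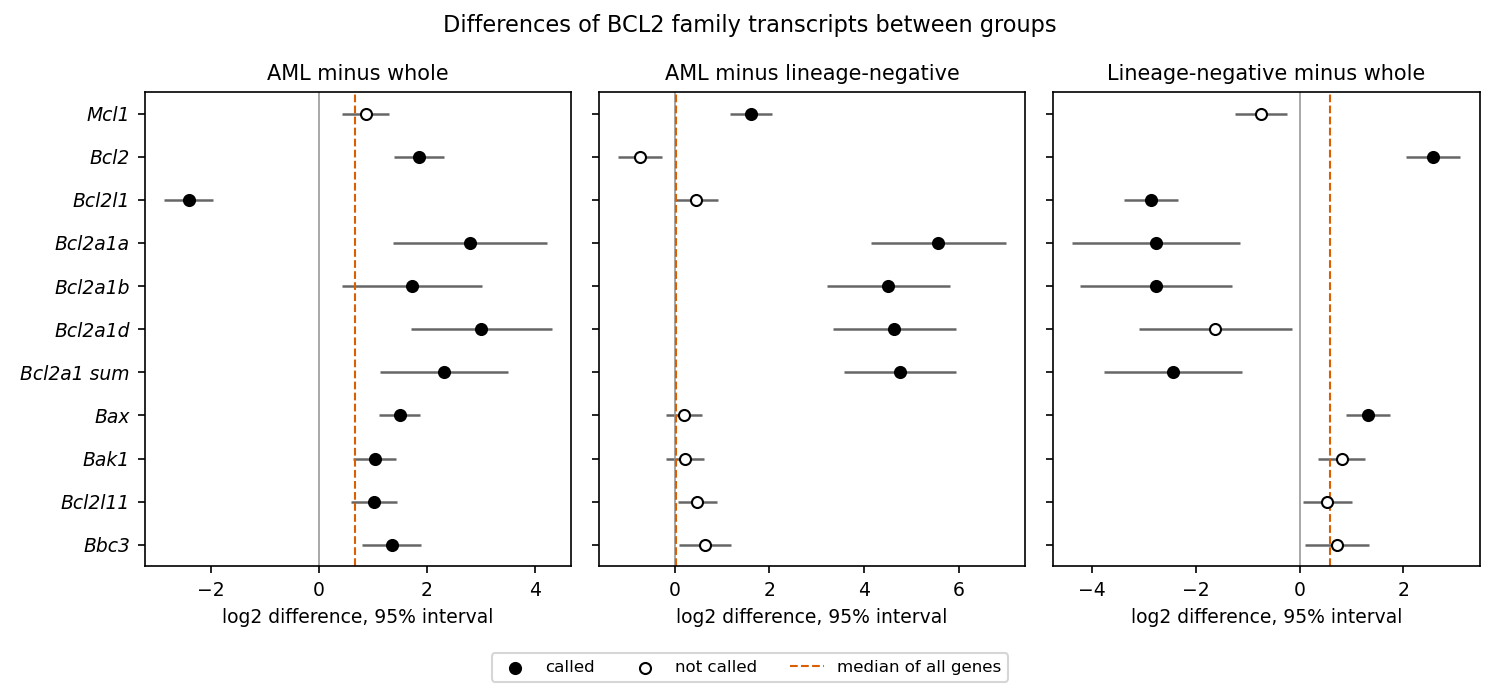
Log2 differences of each member and of the Bcl2a1 sum with 95% intervals from limma, for AML minus whole, AML minus lineage-negative and lineage-negative minus whole marrow; filled points were called, and the dashed line is the median of all genes (0.67, 0.02 and 0.59). Bcl2l1 stands at −2.41 and −2.87 in the comparisons with whole marrow, and the Bcl2a1 genes stand at 4.51 to 5.57 against lineage-negative marrow.

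Between the normal groups, 2 of 10 members were called higher in lineage-negative marrow (Bcl2 and Bax) and 3 lower (Bcl2l1, Bcl2a1a and Bcl2a1b), where 33.1% of all genes were called higher and 17.2% lower. With TMM scaling these were 1 and 5, beside 10.8% and 24.8%. By adjusted p alone 5 were higher and 4 lower, beside 44.3% and 18.9%. Without whole marrow 1, 5 were called lower. Bcl2 was the member called higher under both scalings. Lineage-negative marrow thus had more Bcl2 and less Bcl2l1 and Bcl2a1 transcript than whole marrow, and AML marrow overlapped the former in Bcl2l1 and exceeded both in the Bcl2a1 sum.

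The make-up of the anti-apoptotic transcripts was read per kilobase of exon, so that genes of different length can be set side by side. Mcl1 made up 73.3% to 76.4% of the summed level in whole marrow, 74.0% to 77.2% in lineage-negative marrow and 52.2% to 89.8% in AML. Bcl2l1 held the next place in whole marrow, at 17.4% to 21.7%, against 3.21% to 6.97% in lineage-negative marrow and 1.53% to 2.92% in AML. Bcl2 held it in lineage-negative marrow, at 15.1% to 21.5%, against 2.58% to 7.93% in AML and 1.77% to 1.94% in whole marrow.

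The Bcl2a1 sum made up 4.32% to 43.7% of the anti-apoptotic level in AML, 3.10% to 4.39% in whole marrow and 0.73% to 1.54% in lineage-negative marrow. In AML marrow 3 it reached 43.7%, beside 52.2% for Mcl1. The other 6 AML marrows ranged up to 17.0%, in AML marrow 6. In AML marrow 1 it was 4.32%, within the range of whole marrow.

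**Figure D3:**
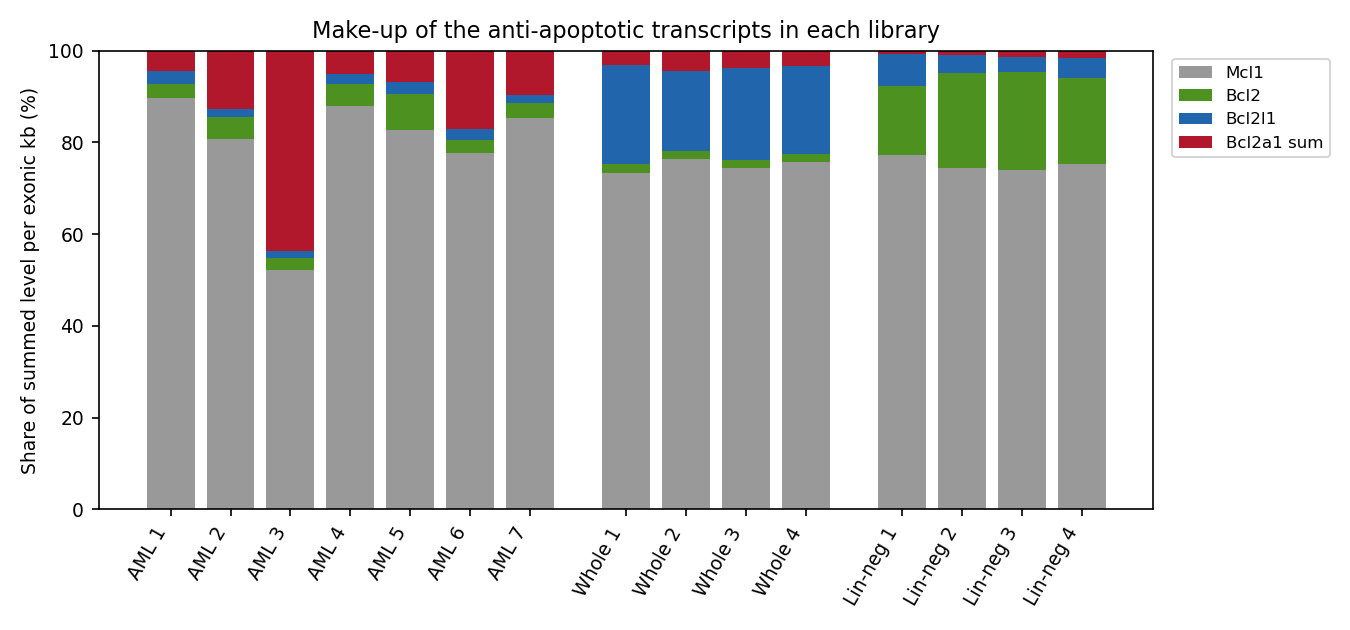
Share (percent) of Mcl1, Bcl2, Bcl2l1 and the Bcl2a1 sum in their summed level per exonic kilobase, 1 bar per library. Mcl1 is the largest part of every bar, Bcl2l1 is prominent in the 4 whole marrows (17.4% to 21.7%), Bcl2 in the 4 lineage-negative marrows (15.1% to 21.5%), and the Bcl2a1 sum in AML marrow 3 (43.7%).

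Ratios within a library do not depend on the size factor, and they are given without a test. They are ratios of normalized counts not divided by length, so only their change between groups is read. The log2 ratio of Bcl2 to Mcl1 was −3.49 to −1.96 in AML, −4.01 to −3.81 in whole marrow and −0.93 to −0.36 in lineage-negative marrow, with no overlap between any of the groups. AML marrow 5 had the highest ratio of the 7 and AML marrow 1 the lowest. The ratio of Bcl2 to Bcl2l1 was 1.03 to 2.61 in AML, −2.48 to −2.30 in whole marrow and 2.11 to 3.74 in lineage-negative marrow. For the Bcl2a1 sum to Mcl1 it was −6.40 to −2.29 in AML and −6.58 to −6.17 in whole marrow, which overlapped. In lineage-negative marrow that ratio was −8.61 to −7.58.

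Ratios with the pro-apoptotic members overlapped more. Bcl2l11 to Bcl2 was −1.73 to −0.17 in AML, −0.18 to −0.092 in whole marrow and −2.50 to −1.97 in lineage-negative marrow, where AML marrow 1 alone reached the whole marrow range. Bax to Bcl2 was −1.97 to −0.52 in AML, −1.19 to −0.79 in whole marrow and −2.46 to −1.59 in lineage-negative marrow. Bak1 to Bax was 1.66 to 1.75 in whole marrow, and 6 of 7 AML marrows and all lineage-negative marrows were below that range, AML marrow 6 being within it at 1.71. These ratios show unequal change of the genes and not which of them changed.

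**Figure D4:**
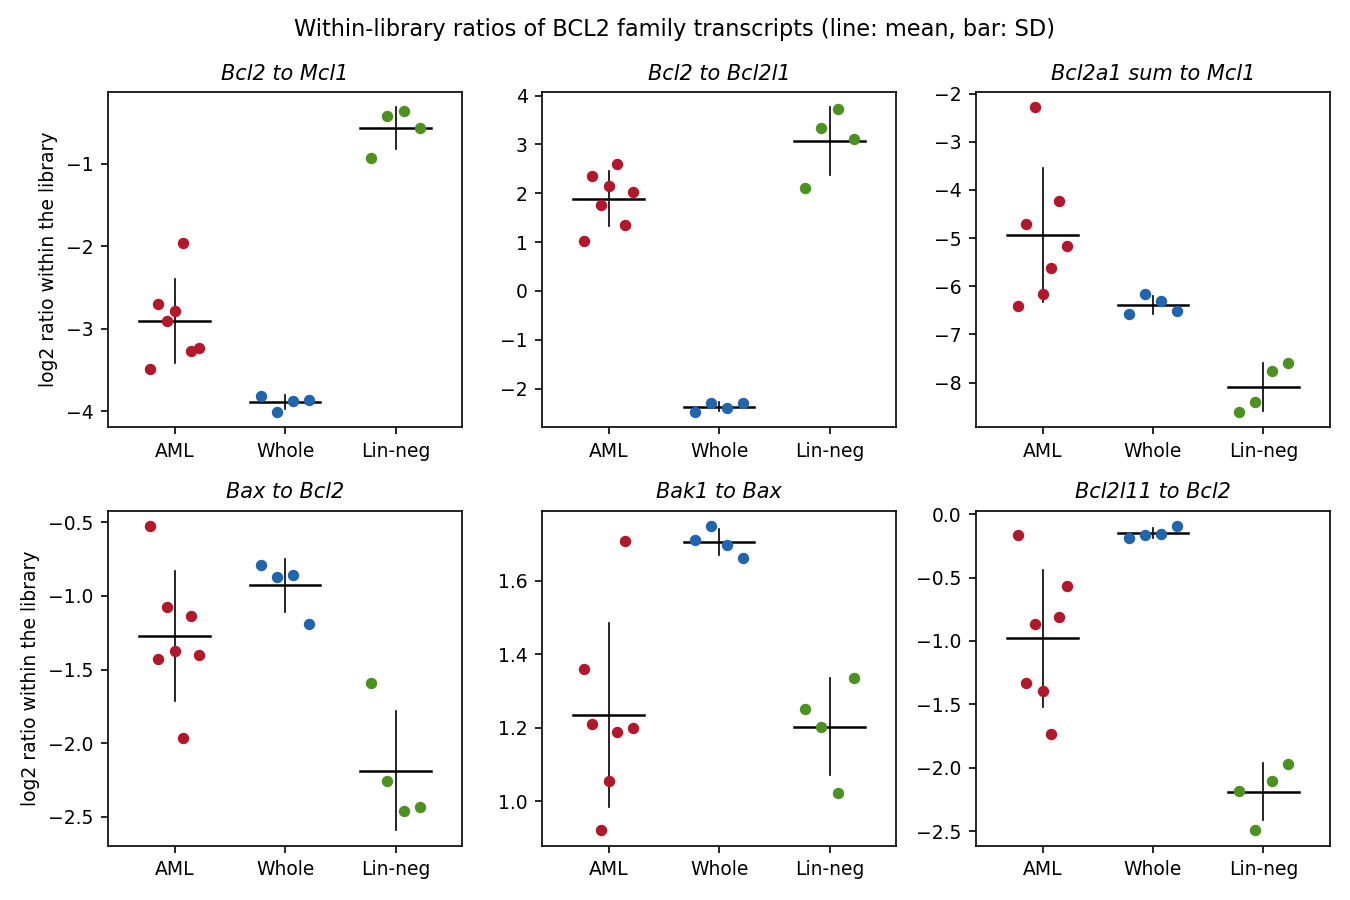
Log2 ratio of normalized counts within each library for 6 pairs of members, with the group mean (line) and SD (bar). The Bcl2 to Mcl1 ratio separates all 3 groups (means −2.91, −3.89 and −0.57 in AML, whole and lineage-negative marrow).

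Other genes of the apoptosis pathway were taken from lists of 37 genes, of which 34 passed the filter. In AML against whole marrow 12 of the 34 (35.3%) were called higher and none lower, beside the 27.3% and 11.3% of all genes above. TMM scaling gave 3 higher and 2 lower of the 34, beside 4.92% and 15.8% of all genes. Without the size threshold, 25 genes were higher by adjusted p (51.5% of all genes were) and 1 was lower (12% of all genes), Bnip3l at −0.96 (limma adjusted p = 0.00058). By unadjusted p, 1 was lower as well. Against lineage-negative marrow 7 (20.6%) were called higher, close to the 17.7% of all genes for the higher calls.

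Of 6 BH3-only genes outside the 10 members, the 4 that passed the filter (Bid, Bad, Bmf and Pmaip1) were all called higher in AML than in whole marrow, where 27.3% of all genes were. With TMM scaling 1 of the 4 was called higher, where 4.92% of all genes were. Against lineage-negative marrow 2 of the 4 were called higher (Bmf and Pmaip1), where 17.7% of all genes were. Bmf, which binds the anti-apoptotic members and is known to respond to loss of attachment, was 1152 ± 283 (SD, n = 7) in AML and 370 ± 89 (SD, n = 4) in whole marrow. Lineage-negative marrow had 57.6 ± 29.2 (SD, n = 4). Its log2 differences were 1.64 from whole marrow (limma adjusted p = 4.2e-05; 0.96 with TMM scaling, under the size needed for a call) and 4.37 from lineage-negative marrow (limma adjusted p = 1.6e-10), with the 3 ranges not overlapping. Bmf had the order of the Bcl2a1 genes: AML, whole, lineage negative.

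Pmaip1, which encodes NOXA, a BH3-only protein known for binding MCL1 and A1, was 541 ± 245 (SD, n = 7) in AML, with 119 ± 23 (SD, n = 4) in whole and 190 ± 34 (SD, n = 4) in lineage-negative marrow. It ranged from 300.3 to 1028 in AML, above all normal marrows. It was called higher against both, by 2.08 (limma adjusted p = 4.7e-06) and 1.42 (limma adjusted p = 0.00020), and by 1.41 and 1.44 with TMM scaling.

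Downstream of the mitochondrion, Apaf1, the scaffold of the apoptosome, was called higher in AML against both normal groups (1.00 and 1.03), the first by a margin at the size threshold and 0.32 with TMM scaling. Casp6, an executioner caspase, was 2.22 higher than in whole marrow (limma adjusted p = 3.2e-07; 1.55 with TMM scaling).

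Among the inhibitors of apoptosis, Birc3, which encodes cIAP2, was 1.18 higher in AML than in whole marrow (limma adjusted p = 0.00010; 0.50 with TMM scaling) and 2.08 higher than in lineage-negative marrow (limma adjusted p = 1.2e-07). In the death receptor list, Fas was called 4.45 higher in AML than in lineage-negative marrow (limma adjusted p = 4.4e-08) and differed from whole marrow by 0.58 (limma adjusted p = 0.23). Tnfrsf1a, the main receptor for TNF, was called 1.07 higher than in whole marrow, a call lost with TMM scaling (0.40, limma adjusted p = 0.058), and 1.55 higher than in lineage-negative marrow. Of 4 genes whose products control MCL1 turnover by ubiquitin, Huwe1 was called higher against whole marrow (1.33), a call lost with TMM scaling (0.65), and differed from lineage-negative marrow by −0.68 (limma adjusted p = 0.018), under the size needed for a call. Trim17 was called higher against lineage-negative marrow (1.30).

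**Figure D5:**
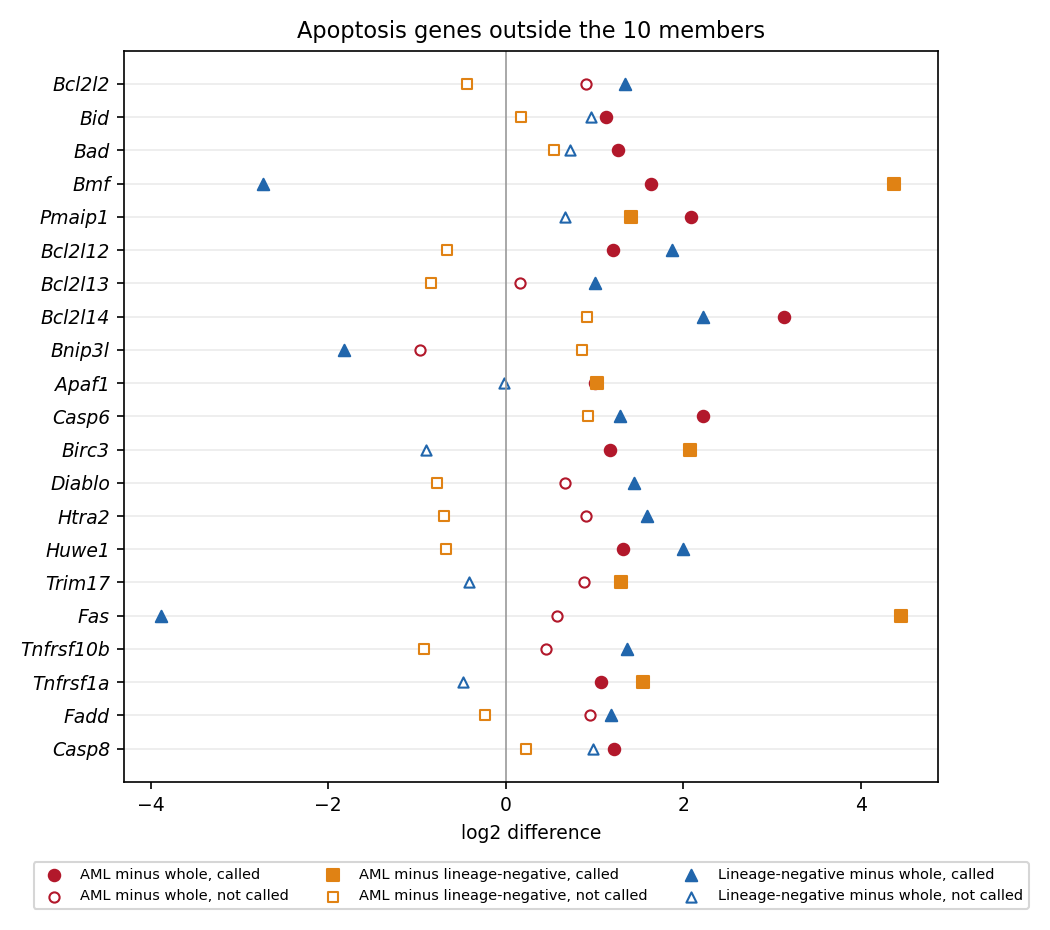
Log2 differences of the listed apoptosis genes outside the 10 members that were called in at least 1 of 3 comparisons and are reported here; filled symbols were called and open symbols were not. Bmf (4.37) and Fas (4.45) stand farthest to the right for AML minus lineage-negative marrow.

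Markers of several cell types moved with the Bcl2a1 and Mcl1 differences from lineage-negative marrow. All 9 neutrophil markers were called higher in AML than in lineage-negative marrow, with sums of 387690 to 1347700 against 963 to 16372, and none was called against whole marrow (0 by unadjusted p, and 1 lower with TMM scaling), where the sums were 417360 to 1125000. The 7 monocyte and macrophage markers were all called higher against lineage-negative marrow and 5 of 7 against whole marrow (2 with TMM scaling), with sums of 43257 to 92592 in AML marrow, 13054 to 28483 in whole and 15984 to 26585 in lineage-negative marrow. Of the lymphoid markers, 6 of 8 B cell genes were called higher in AML than in lineage-negative marrow, and of 7 T and NK cell genes 4 were called higher and 1 lower. All 5 eosinophil markers were called lower in AML than in either normal group, with sums of 402 to 1399 in AML, 21343 to 48902 in whole and 7544 to 38472 in lineage-negative marrow. Of 5 megakaryocyte markers, 3 were called lower in AML than in lineage-negative marrow and 4 lower than in whole marrow. Progenitor markers moved with Bcl2, 6 of 7 being called lower and 1 higher in AML than in lineage-negative marrow, with sums of 9485 to 14991 against 28067 to 34994, and 4769 to 8252 in whole marrow. The part of these cells in the member differences was not tested.

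Genes with the most similar pattern were found among 10031 candidates by the root mean square distance between centred log2 values over the 15 samples. Nearest to Mcl1 were Stard5 (0.15), Syk (0.18) and Map3k3 (0.20). Nearest to Bcl2 were Mfsd4b4 (0.25), Zfp623 (0.26) and Dusp12 (0.27). The closest to Bcl2l1 were Ube2l6 (0.37), Marchf2 (0.40) and Xpo7 (0.41), and the closest to the Bcl2a1 sum were Asb2 (0.48), Traf1 (0.66) and Tlr3 (0.68). The Bcl2a1 sum had the largest distances of the 4. The values were not scaled, so this distance grows with the size of a gene's differences and does not rank how unusual a pattern is.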

How the data were processed

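Gene expression by bulk sequencing of total RNA was compared in 7 AML, 4 wild-type whole and 4 wild-type lineage-negative mouse marrows, grouped by title. The library kit was TruSeq Stranded Total RNA, as the labels' protocols state. The table deposited by the authors holds signal values, namely estimated reads of each gene over a DESeq2 size factor for the library (poscounts type, per the table's name). Partek, STAR and DESeq2 and the build mm10 are named, without roles or versions, in the submitters' processing notes. Whether counting used strand is not given in the sources used here, so reads of overlapping genes may be shared. Between 81.3% and 86.7% of low values were whole multiples of 1 step per library (tolerance 0.02 of a step), so whole reads were not recovered and no count test was run. Depth was the total divided by that step, and floors of 3 reads cover counting error only.

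Genes with at least 10 in at least 4 samples (18941) entered 1 limma fit of 3 group means on log2(value + 1), with a mean-variance trend and two-sided tests (limma 3.58.1, R 4.3.3), adjusted over all genes kept. The Bcl2a1 sum was 1 added row. On simulated data for AML against whole marrow over 18941 genes, 180 of 200 genes changed by a log2 of 2 and 6 unchanged genes were called. Exonic lengths and coding sequences came from GENCODE vM21 and promoters from RefSeq, compared with Biopython 1.88. All 10 members and the sum are named, other pathway genes where called in at least 1 comparison, and for 4 patterns the 3 nearest genes whose mean normalized count reached 100. The members and lists were chosen with earlier results of these data known. Alternatives were other pseudocounts, filters, scalings, weights and variance models, pairwise fits, a replicate block, subtraction of the receptor background, and leaving out each library. Leaving out AML marrows 5 and 6 together was added after seeing the data. Results for some listed genes are not reported here.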

Additional observations from a re-analysis of the deposited data

Results flagged for a closer look

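AML marrow 3 stood apart from the other 6 AML marrows in all 3 Bcl2a1 genes and their sum, the only 4 of 51 combinations tested (10 members, the Bcl2a1 sum and 6 ratios, each in 3 groups) in which the highest or lowest library lay beyond the critical gap (0.568 of the range for 7 samples, 0.829 for 4). In normally distributed values, chance alone gives such a gap in about 5% of groups. Member gaps were read on normalized counts without a log, and the Bcl2a1 sum in AML was skewed (mean 716, median 448.7). Member gaps on the log2 scale were not computed, and the log2 ratio of the Bcl2a1 sum to Mcl1 was not flagged. The 3 paralogs share reads, so the 4 are not independent. Bcl2a1a was 571.6 in AML marrow 3 and 24.77 to 156.9 in the others, with the gap at 0.758 of the range. Bcl2a1b was 986.3, against 63.71 to 462.3, at 0.568. Bcl2a1d was 1123, against 56.74 to 199.0, at 0.867. The sum was 2681, against 147.6 to 818.1, at 0.735.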

How the results depend on the processing

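The 33 member results were recomputed under 27 alternatives: of 891 values, 853 kept their direction and side of the threshold, 24 lost the call, 12 gained one and 2 reversed. The reversed values are Bcl2l11 in lineage-negative against whole marrow, −0.17 with TMM and −0.22 with quantile scaling; neither it nor its value as deposited was called. The count of members higher in AML than in whole marrow was 8; it was 3 with TMM and 3 with quantile scaling, and 5 to 8 when single libraries were left out (5 without whole marrow 1). Members lower in AML than in lineage-negative marrow were 0, and 1 by adjusted p alone. Members higher in lineage-negative than in whole marrow were 2; they were 1 with either scaling and 5 by adjusted p alone. Members lower there were 3; they were 5 with TMM scaling and 3 to 5 with single libraries left out. The causes were not tested. The replicate block left 7 members called higher in AML than in whole marrow (Bcl2l11 at 0.98) and changed no other call of a member. Same-numbered samples had correlations of −0.288 to 0.171 in their deviations and did not all correlate best with their own number. With so few samples such correlations cannot decide whether same-numbered samples share an animal or a batch. Depth limits Bcl2a1a in lineage-negative marrow, which was listed at 0 in 2 of 4 libraries; the Bcl2a1 sum there rests on 12 to 32 estimated reads.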
